A study of Mus musculus with 21 samples.

Results

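The genes described here encode the NF-kB transcription factors, the IkB proteins that hold them back, and a pair of feedback regulators, in mouse macrophages given silica particles of 2 sizes. They were named by symbol as a functional group: the subunits Rel, Rela, Relb, Nfkb1 and Nfkb2, the inhibitors Nfkbia, Nfkbib and Nfkbie, and the feedback genes Tnfaip3 and Traf1. The group was chosen with earlier results of these data known, so counts of members beside shares of all genes are descriptive. Each was read from a probe set that maps to that symbol alone, the one with the highest mean over all arrays where a gene had several. Of the 10 genes, 9 were measured, among 12393 genes in all. Nfkb1 was not analysed here.

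The study exposed RAW 264.7 cells, a mouse tumour line that behaves like a macrophage, to amorphous silica for 2 h in serum-free medium and measured messenger RNA on Affymetrix arrays. The 10 nm particles were given at 5 µg/ml (low), 20 µg/ml (mid) and 50 µg/ml (high), and the 500 nm particles at 250 µg/ml (low), 500 µg/ml (mid) and 1000 µg/ml (high). Cells that received no particles served every dose as control, with 3 arrays in each of the 7 groups. All groups are one cell line, and the labels leave unstated if replicates came from separate cultures, so that p-values here reflect only array-to-array spread, which may be technical. They are also silent on the medium of the untreated cells during the exposure, so the change to serum-free medium and the particles cannot be told apart in a comparison with those cells. Taking nominal particle surface as dose over diameter and the low dose as 1, the doses stood at 1, 4 and 10 for 10 nm and at 1, 2 and 4 for 500 nm silica. The low doses were therefore matched in nominal surface, as were the mid dose of 10 nm and the high dose of 500 nm silica. The mid doses were not matched in surface, nor were the high doses, and no pair was matched in mass.

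In a resting macrophage most NF-kB dimers are kept in the cytoplasm by IkB proteins. A stimulus that activates the IkB kinases destroys the inhibitor, and the freed dimer enters the nucleus and switches on inflammatory genes. Among its targets are several of its own subunit and inhibitor genes and the feedback gene Tnfaip3, so the transcripts described here are both parts of the pathway and, in many cells, outputs of it.

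Binding sites for NF-kB in or near a gene's promoter are one route by which such genes are controlled, so the promoters of the members with the clearest response to silica are shown first. Each runs 5′ to 3′ on the gene's own strand over the 250 bases before the annotated start (RefSeq, GRCm38.p6). Capitals mark stretches that match the NF-kB (kB) consensus of 10 letters, searched on both strands with overlapping matches joined. The Rel window lies on the minus strand at chr11:23770970-23771219, that of Nfkbib on the minus strand at chr7:28766645-28766894, that of Nfkbie on the plus strand at chr17:45555450-45555699 and that of Traf1 on the minus strand at chr2:34961773-34962022.
Rel: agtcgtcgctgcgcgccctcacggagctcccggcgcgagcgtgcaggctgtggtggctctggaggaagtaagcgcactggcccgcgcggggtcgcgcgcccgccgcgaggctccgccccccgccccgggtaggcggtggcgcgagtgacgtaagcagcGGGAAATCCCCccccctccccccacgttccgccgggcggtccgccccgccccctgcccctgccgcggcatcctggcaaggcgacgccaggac
Nfkbib: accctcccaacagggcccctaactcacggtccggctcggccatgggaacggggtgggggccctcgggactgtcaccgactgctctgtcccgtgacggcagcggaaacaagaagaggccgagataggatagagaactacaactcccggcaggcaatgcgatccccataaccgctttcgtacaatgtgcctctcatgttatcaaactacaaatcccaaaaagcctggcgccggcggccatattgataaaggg
Nfkbie: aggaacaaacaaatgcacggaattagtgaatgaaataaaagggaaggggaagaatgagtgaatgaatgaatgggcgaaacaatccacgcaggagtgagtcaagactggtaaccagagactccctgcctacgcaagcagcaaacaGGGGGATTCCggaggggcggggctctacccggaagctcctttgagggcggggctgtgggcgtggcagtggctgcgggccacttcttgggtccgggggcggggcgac
Traf1: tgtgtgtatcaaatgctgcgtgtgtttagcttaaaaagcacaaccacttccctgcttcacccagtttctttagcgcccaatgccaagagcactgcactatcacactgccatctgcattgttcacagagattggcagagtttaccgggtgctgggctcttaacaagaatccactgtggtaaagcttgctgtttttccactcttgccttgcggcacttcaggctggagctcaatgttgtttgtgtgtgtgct

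The Rel window holds the stretch GGGAAATCCCC, from 92 to 82 bases before the start, and that of Nfkbie holds GGGGGATTCC, from 106 to 97 bases before it. No match lies in the windows of Nfkbib and Traf1, which says only that these letters are not in these 250 bases. Of the 8 members with a promoter entry, 5 had a match (62.5%), against 2225 of 27025 genes (8.23%). The others with one were Nfkbia, with GGAAATTCCC at 29 to 20 bases before the start, Tnfaip3, whose nearest match GGAAATCCCC lies 12 to 3 bases before one of its starts, and Nfkb2, whose nearest match GGGGCTTTCC lies 11 to 2 bases before one of its starts. Another annotated start of Tnfaip3 had no match, and a gene was counted where any of its starts had one. Rela had none, and Relb and Nfkb1 had no entry. A match is a string of letters and not a measured binding site.

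Values are given as log2 signal, converted from the deposited log10 values, so that a difference of 1 is a doubling. Every fold change rests on that reading of the log base. Changes were fitted with limma over all genes and 21 arrays, and a gene is said to have changed where its p-value, adjusted by Benjamini-Hochberg over all 12393 genes, was under 0.05. Errors on changes are standard errors, and those on levels are SD over 3 arrays. Across genes, the arrays correlated at 0.983 to 0.998 within groups and at 0.969 to 0.998 between groups, and no pair was identical. The SD of an array's values was 2.46 to 2.60 on replicate 3 arrays, against 2.60 to 2.65 on replicate 1 and 2.58 to 2.67 on replicate 2 arrays, so calls that changed without the replicate 3 arrays are given both ways. Arrays of the same replicate number also tended to deviate alike from their group means (median correlation 0.46 over 63 pairs). The median between numbers, -0.26, is no separate contrast, because the 3 deviations in a group sum to 0. The labels name no batch, and the main fit left the number out. With the number fitted as a block, 13 member calls were gained and 0 lost, as listed at the end. All 10 macrophage markers looked for were measured, and 9 of them lay above the median of all genes (6.66), led by Csf1r at 13.30, while Itgam read 6.02. None of the 7 T cell, 7 fibroblast and 7 epithelial markers measured lay above that median, and of 6 B cell markers only Blnk did, at 9.51.

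Rel, which encodes the c-Rel subunit, gave the largest response of the group. Its log2 signals were 8.93, 8.97 and 8.53 at the 500 nm high dose, against 6.81, 6.84 and 6.84 in untreated cells. All 3 exposed arrays lay far above the untreated arrays, which nearly coincided. The change was 1.98 ± 0.15, a 3.94-fold rise (adjusted p = 1.9e-08). In bulk RNA such as this, a change in the share of cells that express a gene and a change in RNA per cell cannot be told apart. Rel at the 500 nm mid dose read 7.57, 7.78 and 7.32, still above every untreated array (0.72 ± 0.15, adjusted p = 0.00908), and at the low dose 7.12, 6.76 and 6.74, which overlapped them (0.04 ± 0.15, 95% interval -0.27 to 0.36, adjusted p = 0.999).

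With 10 nm silica Rel passed at the mid and high doses, with changes below that at the 500 nm high dose. Its arrays read 7.24, 7.08 and 7.07 at the low dose, 7.41, 7.49 and 7.33 at the mid dose and 7.58, 7.43 and 7.04 at the high dose. All 9 lay above the untreated arrays. The changes were 0.30 ± 0.15 at the low dose (adjusted p = 0.75), 0.58 ± 0.15 at the mid dose (adjusted p = 0.0157) and 0.52 ± 0.15 at the high dose (adjusted p = 0.0203). Without the replicate 3 arrays they were 0.33, 0.62 and 0.68. The calls of these smaller rises depended on single arrays, each such fit having fewer arrays. With one array left out the changes ran from 0.54 to 0.62 at the 10 nm mid dose. They ran from 0.41 to 0.67 at the 10 nm high and from 0.61 to 0.84 at the 500 nm mid dose. The mid-dose call was lost without the first or the second array of that dose (adjusted p 0.0523 to 0.0617), the high-dose call without untreated replicate 1 or the first or second high-dose array (0.0561 to 0.0745), and the 500 nm mid-dose call without its second array (0.0654).

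**Figure D1:**
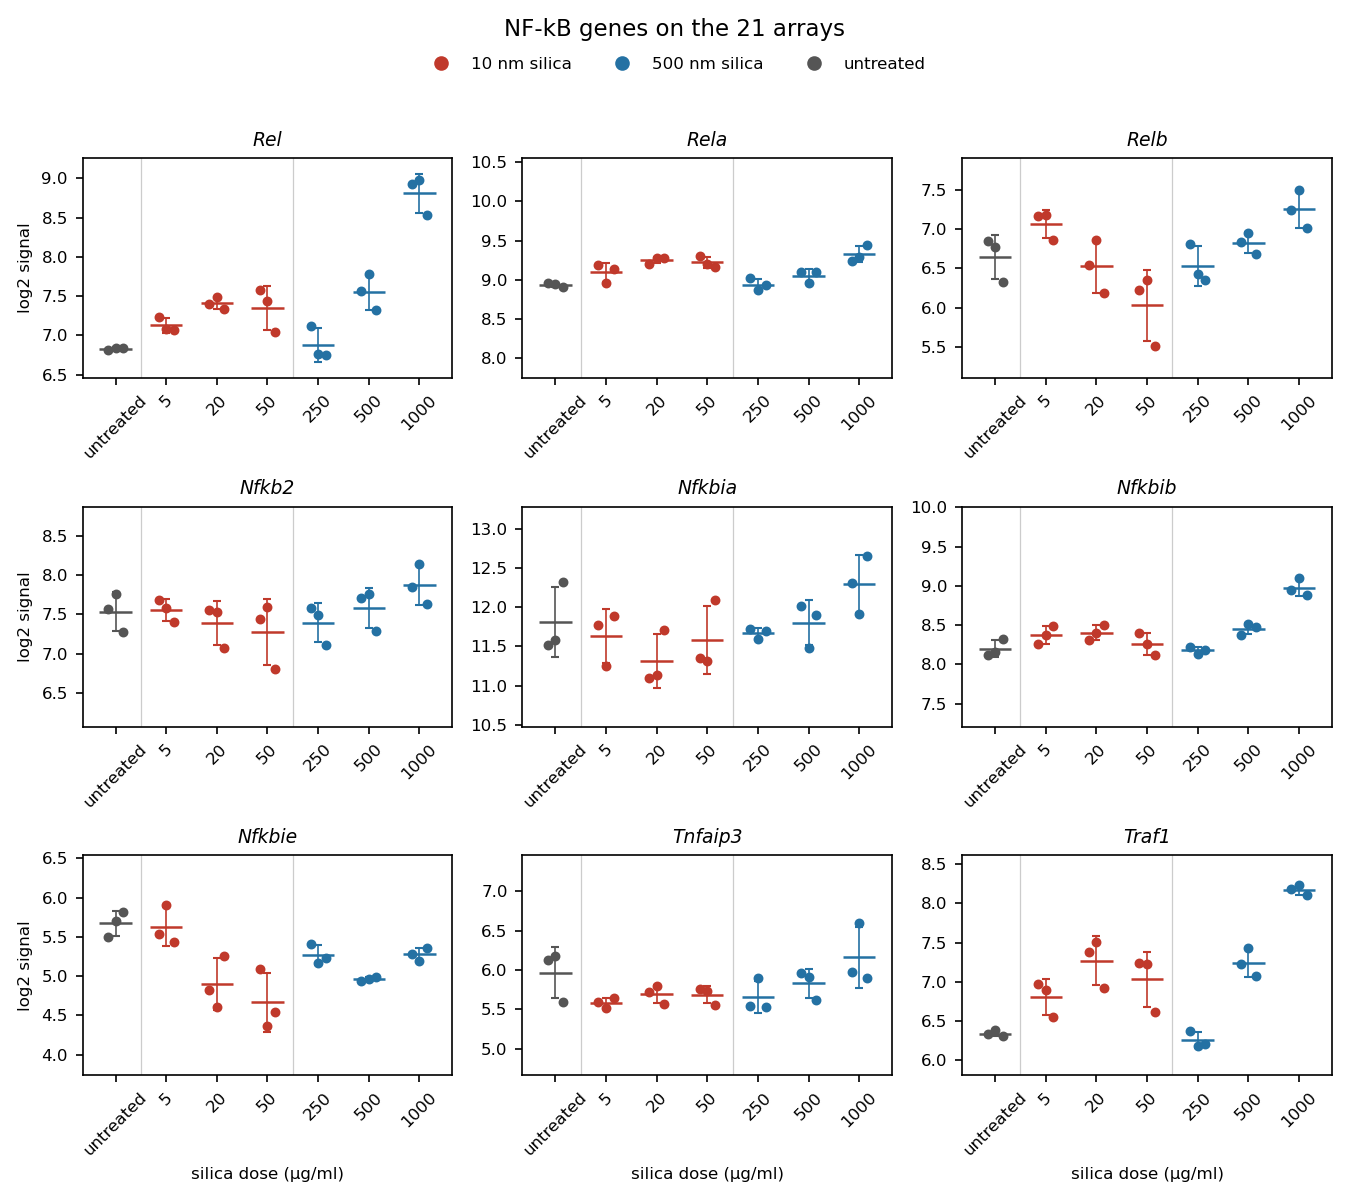
Log2 signal of the 9 measured members on each of the 21 arrays, with particle size and dose on the horizontal axis, 1 point per array, a bar at the mean of each group and an error bar of 1 SD. The Rel, Nfkbib and Traf1 arrays of the 500 nm high dose stand clear of all other arrays, and Nfkbie lies lowest at the mid and high doses of 10 nm silica, whose arrays overlap those of the 500 nm mid dose.

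Rela, which encodes the main transcriptionally active partner in the classical NF-kB dimer, moved by much less. It read 9.24, 9.29 and 9.44 at the 500 nm high dose, against 8.95, 8.94 and 8.91 in untreated cells. The exposed arrays were all higher, without overlap. The change was 0.39 ± 0.09, a 1.31-fold rise (adjusted p = 0.00512), and rises of 0.32 ± 0.09 and 0.29 ± 0.09 passed at the mid and high doses of 10 nm silica (adjusted p = 0.0275 and 0.0302). Leaving out any one of the 6 arrays compared ended the call at the 10 nm mid dose (0.055 to 0.0845). Leaving out any one but the third high-dose array did so at the 10 nm high dose (0.0584 to 0.0786). Without the replicate 3 array of every group, none of these 3 rises passed (0.129 at the 10 nm mid, 0.0735 at the 10 nm high and 0.075 at the 500 nm high dose).

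Relb, a subunit used mainly by the slower alternative branch of the pathway, had its lowest mean at the 10 nm high dose and its highest at the 500 nm high dose. At the 10 nm high dose it read 6.22, 6.35 and 5.51, against 6.84, 6.78 and 6.32 in untreated cells. The third array of each group was its lowest, and the groups overlapped slightly, with the second exposed array just above the lowest untreated one. The change was -0.62 ± 0.21 (adjusted p = 0.0466). The call was lost without the third high-dose array, where the change was -0.36 (adjusted p = 0.266), and without untreated replicate 1 or 2 (0.149 and 0.139), but not without the replicate 3 arrays of all groups (0.0247). Nor did it hold with quantile normalization (0.0794) or with arrays centred on their medians (0.0694). With the 500 nm high dose Relb read 7.25, 7.50 and 7.01, all above the untreated arrays (0.61 ± 0.21, adjusted p = 0.0608). That change passed with quantile normalization (0.0462), with arrays centred on their medians (0.0234), without the replicate 3 arrays of all groups (0.0197) and with the replicate number as a block (0.00139).

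Nfkb2, whose protein is a precursor that restrains Relb until it is processed, did not pass at any dose against untreated cells in the main fit. It read 7.85, 8.14 and 7.63 at the 500 nm high dose and 7.44, 7.60 and 6.80 at the 10 nm high dose, against 7.57, 7.76 and 7.27 in untreated cells. In all 3 groups the third array was lowest, and each group overlapped the untreated arrays. Set against the untreated array of the same number, every 500 nm high-dose array was higher and every 10 nm high-dose array lower. The changes were 0.34 ± 0.21 for the 500 nm high dose (95% interval -0.09 to 0.77) and -0.26 ± 0.21 for the 10 nm high dose (-0.69 to 0.17). With the replicate number as a block the rise at the 500 nm high dose passed (adjusted p = 0.0191). A second probe set of Nfkb2 gave 0.20 ± 0.16 and 0.34 ± 0.16, so the sign at the 10 nm high dose differed between the probe sets.

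Among the inhibitors, Nfkbib, which encodes IkB beta, rose at one dose of one particle only by this test. At the 500 nm high dose it read 8.94, 9.10 and 8.89, against 8.12, 8.16 and 8.32 in untreated cells. Its 3 exposed arrays were above all 18 others of the series. The change was 0.77 ± 0.10, a 1.71-fold rise (adjusted p = 1.81e-05). At the other 5 doses its changes lay between -0.02 and 0.26, and the mid dose of 500 nm silica, with 8.38, 8.52 and 8.47, was the next highest (0.26 ± 0.10, adjusted p = 0.26).

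Nfkbie, which encodes IkB epsilon, showed the largest fall. Its probe set was dim, with a mean of 5.20 over the 21 arrays, at percentile 35.4 of all genes, and how near this lies to background was not tested. It read 5.09, 4.37 and 4.54 at the 10 nm high dose and 4.82, 4.60 and 5.26 at the 10 nm mid dose, against 5.50, 5.70 and 5.81 in untreated cells. Both exposed groups lay wholly below the untreated arrays, although their own arrays were spread widely. The falls were -1.01 ± 0.18 at the high dose, 2.01-fold lower (adjusted p = 0.000389), and -0.78 ± 0.18 at the mid dose, 1.71-fold lower (adjusted p = 0.00532). Both held whichever single array was left out. With 500 nm silica it read 4.93, 4.96 and 4.99 at the mid dose, again below all untreated arrays (-0.71 ± 0.18, adjusted p = 0.0299), but that call was lost without any of 5 of the 6 arrays (0.0869 to 0.135) and without the replicate 3 arrays (0.132). It read 5.28, 5.20 and 5.36 at the 500 nm high dose, lower than every untreated array, and did not pass (-0.39 ± 0.18, 95% interval -0.76 to -0.03, adjusted p = 0.142).

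Nfkbia, which encodes IkB alpha, the classical inhibitor that NF-kB itself induces within the first hours of a stimulus, showed no change that passed against untreated cells in the main fit. It read 12.31, 11.91 and 12.66 at the 500 nm high dose and 11.35, 11.32 and 12.09 at the 10 nm high dose, against 11.52, 11.59 and 12.32 in untreated cells. In all 3 groups the third array was the highest, and each exposed group overlapped the untreated arrays. Against the untreated array of the same number, every 500 nm high-dose array was higher and every 10 nm high-dose array lower. The changes were 0.48 ± 0.26 (95% interval -0.05 to 1.02, adjusted p = 0.22) and -0.23 ± 0.26 (-0.76 to 0.31, adjusted p = 0.539). The first interval reaches a 2-fold rise. With the replicate number as a block the rise at the 500 nm high dose passed (adjusted p = 0.0246), as did a fall at the 10 nm mid dose (0.0304).

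The array carries 4 probe sets for Nfkbia alone, and they did not give one answer. Fitted with all single-symbol probe sets, 1448306_at rose by 0.93 ± 0.16 at the 500 nm high dose (adjusted p = 0.000406) and gave -0.24 ± 0.16 at the 10 nm high dose (adjusted p = 0.311). In contrast, 1449731_s_at fell by 0.81 and 0.71 at the 10 nm mid and high doses (SE 0.15 each, adjusted p = 0.00158 and 0.00299) and gave 0.34 ± 0.15 at the 500 nm high dose (adjusted p = 0.159). The probe set used above, 1420088_at, has the highest mean of the 4, and 1420089_at was too variable to pass anywhere (SE 0.61). These fits were added after the first results were seen. The 4 probe sets gave the same sign at the 500 nm high dose and the same sign at the 10 nm high dose, and differed in which of those changes passed.

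**Figure D2:**
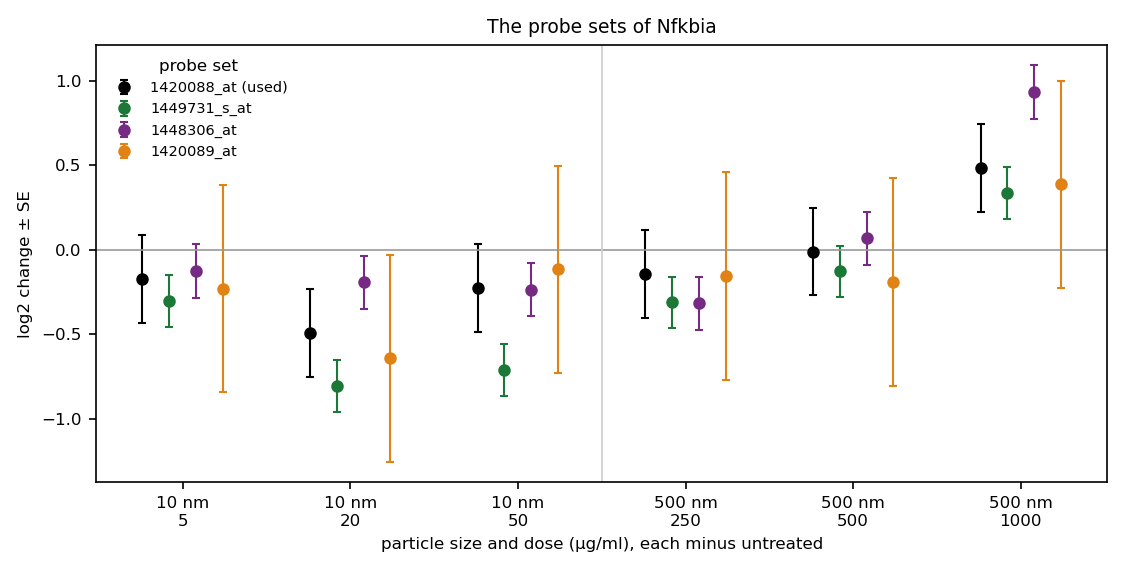
Log2 change against untreated cells, with its SE, of each of the 4 Nfkbia probe sets at the 3 doses of each size. All 4 lie above 0 at the 500 nm high dose and below 0 at the 10 nm high dose, and the longest error bars are those of 1420089_at.

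Of the feedback genes, Traf1, an adaptor of TNF receptors that NF-kB induces, rose with both particles. It read 8.18, 8.23 and 8.11 at the 500 nm high dose, against 6.33, 6.38 and 6.31 in untreated cells. The gap between the groups was many times the spread within either. The rise was 1.83 ± 0.17, or 3.56-fold (adjusted p = 2.21e-07). It read 7.22, 7.43 and 7.07 at the 500 nm mid dose (0.90 ± 0.17, adjusted p = 0.00329), while at the low dose it read 6.38, 6.19 and 6.21 and overlapped untreated cells (-0.08 ± 0.17, adjusted p = 0.999).

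With 10 nm silica Traf1 already stood above untreated cells on every array at the low dose, where it read 6.98, 6.90 and 6.55. It read 7.38, 7.51 and 6.92 at the mid dose and 7.24, 7.23 and 6.62 at the high dose. The third array was the lowest at each of these doses, and the high dose lay no higher than the mid dose. The changes were 0.47 ± 0.17 (adjusted p = 0.409), 0.93 ± 0.17 (adjusted p = 0.000779) and 0.69 ± 0.17 (adjusted p = 0.00632). The calls at the mid and high doses held whichever array was left out, and without the replicate 3 arrays the low-dose rise passed as well (0.58 ± 0.11, adjusted p = 0.0233).

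Tnfaip3, a ubiquitin-editing enzyme that shuts off NF-kB signalling and is a classical NF-kB target, did not pass at any dose. Its signal was below the median of all genes, with a mean of 5.80 over the 21 arrays (percentile 42.3). It read 5.98, 6.60 and 5.90 at the 500 nm high dose and 5.75, 5.74 and 5.56 at the 10 nm high dose, against 6.13, 6.18 and 5.59 in untreated cells. The untreated arrays were themselves spread widely, with the third one low, and both exposed groups overlapped them. The changes were 0.19 ± 0.17 (95% interval -0.17 to 0.56) and -0.28 ± 0.17 (-0.65 to 0.08). Without the second 500 nm high-dose array, the change at that dose was -0.03.

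Members were then counted over the 9 against untreated cells. At the 10 nm low dose none passed in limma, with 2 at an unadjusted p under 0.05, where 0.767% of all genes passed. All 3 arrays of Rel, Rela, Relb and Traf1 nevertheless lay above the untreated arrays there, as did those of 7.3% of all genes, and Traf1 passed without the replicate 3 arrays. In limma, at the 500 nm low dose none passed, with 1 at that unadjusted level, where 0.428% did. At the 10 nm mid dose 3 rose, where 3.22% of all genes did, and 1 fell, where 7.39% did. At the 10 nm high dose 3 rose (7.58% of all genes) and 2 fell (12.6%). At the 500 nm mid dose 2 rose (1.26%) and 1 fell (1.51%), and at the 500 nm high dose 4 rose (5.31%), and of the 9 changes Nfkbie alone was below 0. The 6 comparisons share the untreated arrays. Median changes of the 9 members were -0.12 and -0.23 at the 10 nm mid and high doses and 0.12 and 0.48 at the 500 nm mid and high doses, where those of all genes were 0.03, 0.04, 0.02 and 0.07.

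How all genes divide into higher and lower depends on the scaling of the arrays, so those percentages are tied to the deposited scale. Of the genes called at the 10 nm high dose 37.5% were higher, and between 43.0% and 67.0% were under 3 other scalings. The same share was 30.3% against 40.4% to 54.6% at the 10 nm mid dose, 45.5% against 51.9% to 59.0% at the 500 nm mid dose and 34.7% against 39.8% to 66.6% at the 500 nm high dose. Centring arrays on their medians moved the median change of all genes at the 10 nm high dose to 0.14. The members' own counts kept their direction under these scalings, with Relb leaving the falls at the 10 nm high dose and joining the rises at the 500 nm high dose. Leaving out one array brought the counts of members to between 2 and 3 at the 10 nm mid dose (2 without replicate 1 or 2 of that dose), between 2 and 4 at the 10 nm high dose (2 without untreated replicate 1, and 3 without untreated replicate 2 or the first or second high-dose array) and between 1 and 3 at the 500 nm mid dose (1 without its replicate 2). The count stayed at 4 for the 500 nm high dose.

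**Figure D3:**
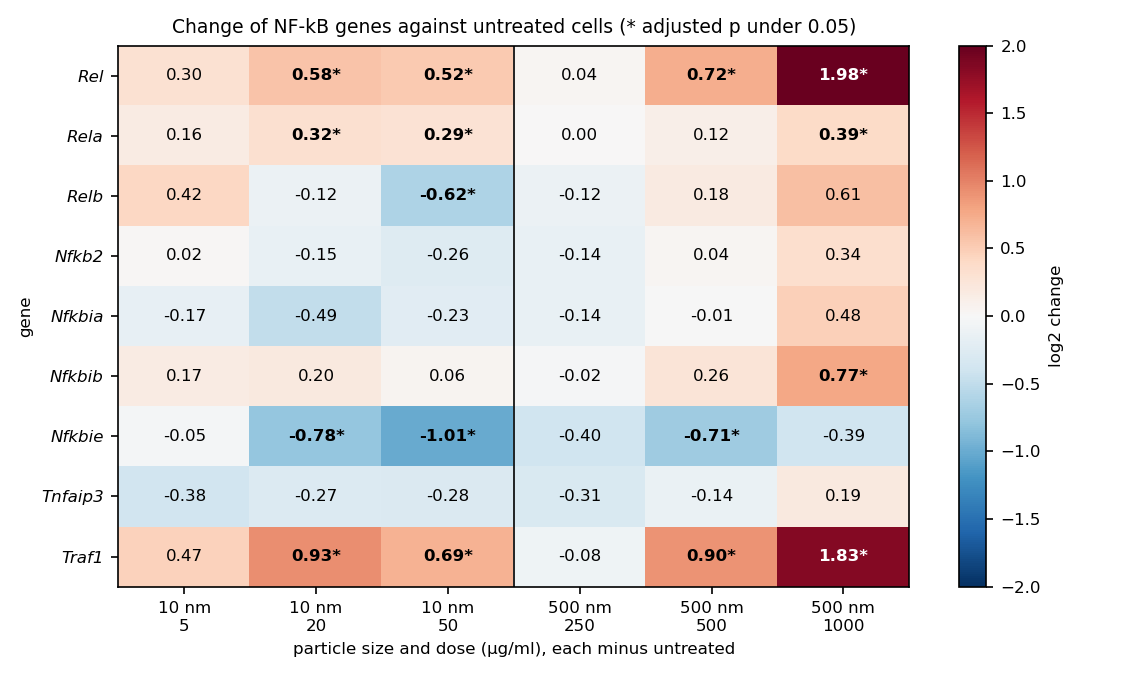
Log2 change against untreated cells of the 9 measured members at the low, mid and high doses of 10 nm and 500 nm silica, with a mark where the adjusted p was under 0.05. Rel and Traf1 passed at the mid and high doses of both sizes and were largest at the 500 nm high dose (1.98 and 1.83), and Nfkbie was lowest at the 10 nm high dose (-1.01).

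The trend over dose was fitted as the slope of the 3 group means on the log2 dose within each size, leaving out untreated cells, so that a slope is the change in log2 signal per doubling of dose. With 500 nm silica 5 of 9 members rose with dose, where 2.83% of all genes did. Rel gained 0.97 ± 0.08 and Traf1 0.96 ± 0.08 per doubling (adjusted p = 5.43e-08 and 2.81e-07), on average close to a doubling of signal per doubling of dose. The means at the low, mid and high doses were 6.87, 7.56 and 8.81 for Rel, in uneven steps, and 6.26, 7.24 and 8.17 for Traf1. Nfkbib gained 0.40 ± 0.05 (adjusted p = 2.44e-05), Relb 0.36 ± 0.11 (0.0398) and Rela 0.19 ± 0.05 (0.00926). The slopes of Rela and Relb each lost their call without certain arrays: Rela without the second low-dose or the third high-dose array (0.0507 to 0.0573), and Relb without any of 5 of the 9 arrays (0.0524 to 0.163). Without the second low-dose array 3 members were left. Without the replicate 3 arrays the slope of Rela did not pass (0.0847), while those of Nfkb2 (0.23 ± 0.06, adjusted p = 0.0267) and Tnfaip3 (0.29 ± 0.08, adjusted p = 0.0486) did. The slopes of Nfkb2, Nfkbia and Tnfaip3 passed with the replicate number as a block, as listed at the end.

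With 10 nm silica 2 members fell with dose, where 9.05% of all genes did. Relb lost 0.31 ± 0.06 per doubling (slope -0.31, adjusted p = 0.00297), and its arrays read 7.16, 7.18 and 6.86 at the low dose, 6.55, 6.86 and 6.18 at the mid dose and 6.22, 6.35 and 5.51 at the high dose. Within each dose the third array was the lowest. The low-dose arrays lay just above those of the mid dose, which overlapped those of the high dose. Nfkbie lost 0.30 ± 0.05 per doubling (slope -0.30, adjusted p = 0.000829). Both held whichever array was left out. The slopes of Rel and Traf1 were 0.07 ± 0.05 (95% interval -0.02 to 0.17) and 0.08 ± 0.05 (-0.02 to 0.18) and did not pass. The doses of the 2 sizes span different ranges, and the difference between their slopes was not tested. Of the genes called for these slopes, 25.7% were higher for 10 nm and 34.5% for 500 nm silica, against 41.3% to 63.4% and 41.2% to 63.0% under the other scalings.

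The sizes were compared directly at equal nominal surface, at a lower and at a higher surface, and whether the size difference itself differed between these surfaces was not tested. At the lower one, the 10 nm low dose against the 500 nm low dose, no member passed in limma, with 2 at an unadjusted p under 0.05, where 0.0888% of all genes passed. Traf1 read 6.98, 6.90 and 6.55 with 10 nm, against 6.38, 6.19 and 6.21 with 500 nm silica, without overlap (0.55 ± 0.17, 95% interval 0.20 to 0.90, adjusted p = 0.64). Relb read 7.16, 7.18 and 6.86, against 6.82, 6.42 and 6.35, also without overlap (0.54 ± 0.21, 95% interval 0.09 to 0.99, adjusted p = 1). Nfkbib and Nfkbie also lay wholly above, so that 4 members did, as did 6.54% of all genes. Of the 9 differences 7 were above 0, with a median of 0.19 beside 0.02 for all genes.

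At the higher equal surface, the 10 nm mid dose against the 500 nm high dose, 4 members were lower with 10 nm silica, where 1.04% of all genes were. Rel read 7.41, 7.49 and 7.33 with 10 nm, against 8.93, 8.97 and 8.53 with 500 nm silica, and was 2.64-fold lower (-1.40 ± 0.15, adjusted p = 1.38e-05). Traf1 read 7.38, 7.51 and 6.92, against 8.18, 8.23 and 8.11, and was 1.87-fold lower (-0.90 ± 0.17, adjusted p = 0.0038). For both genes the 3 arrays of 10 nm silica lay wholly below those of 500 nm silica. Nfkbib read 8.31, 8.40 and 8.50, against 8.94, 9.10 and 8.89, again wholly below (-0.57 ± 0.10, 1.49-fold lower, adjusted p = 0.00262). These 3 calls held whichever array was left out, without the replicate 3 arrays and under each scaling.

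Nfkbia was the fourth, with 11.10, 11.14 and 11.71 for the 10 nm mid dose, against 12.31, 11.91 and 12.66 for the 500 nm high dose. The groups did not overlap, but each was spread widely. The difference was -0.98 ± 0.26 (adjusted p = 0.0433), and the call was lost without replicate 1 or 2 of the 10 nm mid dose or replicate 1 or 3 of the 500 nm high dose (0.134 to 0.211) and with arrays centred and scaled to one SD (0.113). The probe sets 1448306_at and 1449731_s_at gave -1.13 ± 0.16 and -1.14 ± 0.15 in the same comparison (adjusted p = 0.000326 and 0.000195), while 1420089_at gave -1.03 ± 0.61 (adjusted p = 0.589). Here all 4 probe sets gave differences close to -1. Relb differed by -0.73 ± 0.21 (adjusted p = 0.0804) and passed without the replicate 3 arrays (0.0255). Nfkb2 differed by -0.49 ± 0.21 (adjusted p = 0.307), Nfkbie by -0.38 ± 0.18 (0.369) and Tnfaip3 by -0.47 ± 0.17 (0.214). Relb, Nfkb2 and Tnfaip3 passed with the replicate number as a block, as listed at the end. For Rela the difference was -0.07 ± 0.09, with an interval from -0.26 to 0.12.

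At the high doses, where 10 nm silica had the larger nominal surface and 500 nm silica the larger mass, 5 members were lower with 10 nm silica, where 4.15% of all genes were. Rel read 7.58, 7.43 and 7.04 with 10 nm, against 8.93, 8.97 and 8.53 with 500 nm silica, 2.75-fold lower (-1.46 ± 0.15, adjusted p = 5.16e-06). Relb read 6.22, 6.35 and 5.51, against 7.25, 7.50 and 7.01, 2.34-fold lower (-1.23 ± 0.21, adjusted p = 0.00106). Traf1 read 7.24, 7.23 and 6.62, against 8.18, 8.23 and 8.11, 2.21-fold lower (-1.14 ± 0.17, adjusted p = 0.000201). In each of these genes every 10 nm array was below every 500 nm array. Nfkbib, at 8.39, 8.26 and 8.12 against 8.94, 9.10 and 8.89, was 1.64-fold lower (-0.72 ± 0.10, adjusted p = 0.00013). These 4 calls held whichever array was left out, without the replicate 3 arrays and under each scaling.

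Nfkbie was the fifth, at 5.09, 4.37 and 4.54 with 10 nm against 5.28, 5.20 and 5.36 with 500 nm silica. Its first 10 nm array came close to the 500 nm arrays, and the others lay well below. The difference was -0.61 ± 0.18 (1.53-fold lower, adjusted p = 0.0372), which was lost without any of 5 of the 6 arrays (0.0737 to 0.169) and without the replicate 3 arrays (0.142). The remaining members also lay below 0: Rela by -0.10 ± 0.09 (95% interval -0.29 to 0.09), Nfkb2 by -0.60 ± 0.21 (adjusted p = 0.0918), Nfkbia by -0.71 ± 0.26 (0.109) and Tnfaip3 by -0.48 ± 0.17 (0.118). Without the replicate 3 arrays Nfkb2 and Nfkbia passed (-0.48 ± 0.12 and -0.78 ± 0.19, adjusted p = 0.0267 and 0.0245). Nfkb2, Nfkbia and Tnfaip3 all passed with the replicate number as a block, as listed at the end. Nfkbia also passed without the third 10 nm high-dose array alone (0.0352), and its probe sets 1448306_at and 1449731_s_at passed with -1.17 ± 0.16 and -1.05 ± 0.15 (adjusted p = 0.000124 and 0.00024). The second Nfkb2 probe set gave 0.14 ± 0.16, opposite in sign to the one used.

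All 9 members thus had a lower mean with 10 nm silica at the high doses and at the higher equal surface, with median differences of -0.71 and -0.57, beside -0.01 and -0.04 for all genes. In each, all arrays of 7 members lay below those of 500 nm silica, as did those of 12.2% and 9.83% of all genes. The 2 comparisons share the 500 nm high-dose arrays. At the mid doses, by contrast, where nominal surface stood at 4 for 10 nm and 2 for 500 nm silica, no member passed in limma, with 1 at an unadjusted p under 0.05, where 2.56% of all genes passed. Rel read 7.41, 7.49 and 7.33 with 10 nm, against 7.57, 7.78 and 7.32 with 500 nm silica, overlapping (-0.15 ± 0.15, 95% interval -0.46 to 0.17). Traf1 read 7.38, 7.51 and 6.92, against 7.22, 7.43 and 7.07, also overlapping (0.03 ± 0.17, 95% interval -0.32 to 0.38). The probe set 1449731_s_at of Nfkbia was lower with 10 nm silica here (-0.68 ± 0.15, adjusted p = 0.0204), while the one used for the gene gave -0.48 ± 0.26 (adjusted p = 0.609).

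**Figure D4:**
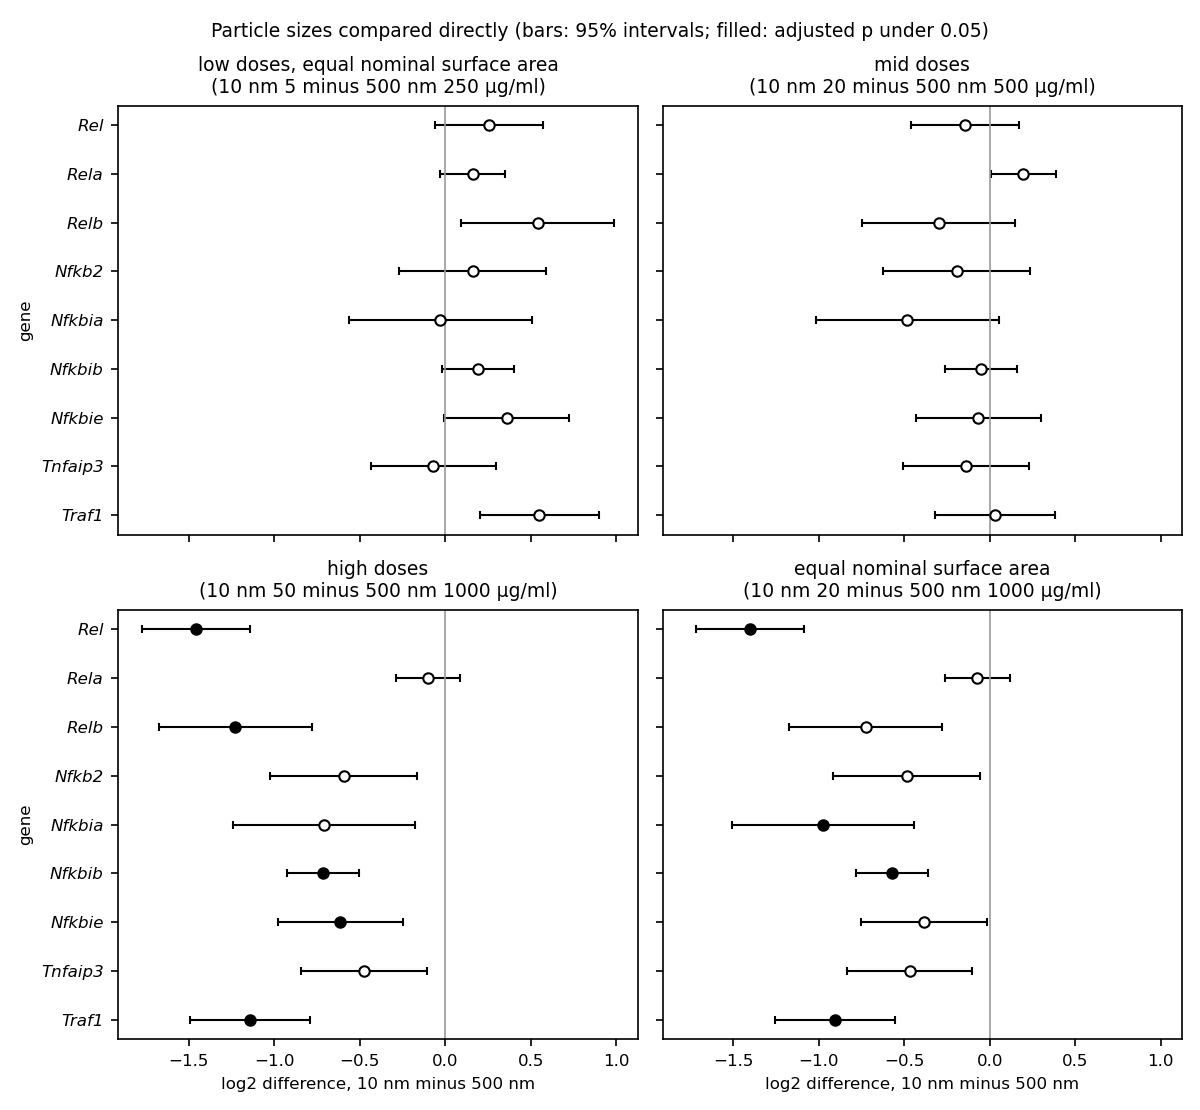
Log2 difference of 10 nm minus 500 nm silica, with its 95% interval, for each measured member in the 4 comparisons of the sizes. Points lie on both sides of 0 at the low and mid doses, and all 9 lie below 0 at the high doses and for the 10 nm mid dose against the 500 nm high dose, with Rel lowest at -1.46 and -1.40.

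The order of the group means differed between members. Rel, Nfkbib and Traf1 were highest at the 500 nm high dose, with 8.81 ± 0.25, 8.98 ± 0.11 and 8.17 ± 0.06, and in each the arrays of that group did not overlap those of the next. The next group was the 500 nm mid dose for Rel (7.56 ± 0.23) and Nfkbib (8.46 ± 0.07) and the 10 nm mid dose for Traf1 (7.27 ± 0.31). Below that, neighbouring groups overlapped throughout for Rel and Nfkbib, and for Traf1 the only other gap lay between the 10 nm low dose (6.81 ± 0.23) and untreated cells (6.34 ± 0.04). Relb ran from 7.26 ± 0.24 at the 500 nm high dose to 6.03 ± 0.46 at the 10 nm high dose, with untreated cells in the middle of the order at 6.65 ± 0.28 and all neighbours overlapping. Nfkbie had its highest mean in untreated cells (5.67 ± 0.16) and its lowest at the 10 nm high dose (4.66 ± 0.38), with gaps between the 10 nm low and 500 nm high doses and between the 500 nm low and 500 nm mid doses. For Rela, Nfkb2, Nfkbia and Tnfaip3 the 500 nm high dose was highest, and every group overlapped its neighbour in the order.

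Over the 7 group means, which share their arrays and scaling, Rel correlated at 0.98 with Nfkbib and at 0.96 with Traf1, and Nfkbib at 0.93 with Traf1. Relb and Nfkb2 correlated at 0.91, and Nfkbie ran at -0.50 to 0.60 with the other members. Among 475 genes whose group means ranged over at least 1 log2 unit, the nearest in pattern to Rel were Acod1 (0.99), H1f2 (0.99) and Gch1 (0.96), and to Traf1 they were Acod1 (0.98), Gch1 (0.98) and Slc15a3 (0.98). The nearest to Relb were Lpin1 (0.86), Cd83 (0.85) and Cth (0.84), and to Nfkbie Deaf1 (0.94), Arhgef3 (0.92) and Zfyve21 (0.91). These are Pearson correlations over 7 points and describe likeness of pattern in these groups.

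Other genes of the pathway were counted from 3 lists. Of 28 listed adaptors and kinases upstream of the NF-kB factors 20 were measured, and at the 500 nm high dose 1 rose and 6 fell, where 5.31% of all genes rose and 10% fell. Their median change was -0.23, beside 0.07 for all genes, and under the 3 other scalings 1 rose and 5 fell. The one that rose was Bcl10, an adaptor that links surface receptors to the IkB kinases, with a mean of 9.94 ± 0.13 against 9.0 ± 0.20 in untreated cells (0.94 ± 0.14, adjusted p = 0.000132). The largest falls were those of Tifa, an adaptor of TRAF proteins (-1.19 ± 0.10, adjusted p = 1.43e-07), Tirap, an adaptor of Toll-like receptors (-0.92 ± 0.16, adjusted p = 0.000323), and the kinase gene Ikbke (-0.62 ± 0.14, adjusted p = 0.00558). Of the 20, 5 fell at the 10 nm high dose, where 12.6% of all genes did, and none rose, while under the 3 other scalings 4 fell and 1 rose. Between the high doses 2 were lower with 10 nm silica, where 4.15% of all genes were, Bcl10 (-0.76 ± 0.14, adjusted p = 0.00234) and Ikbkg, the regulatory subunit of the IkB kinase (-0.69 ± 0.13, adjusted p = 0.00234).

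Other inhibitors and regulators of the pathway numbered 18 measured of 22 listed, and at the 500 nm high dose 5 rose and 1 fell, where 5.31% of all genes rose and 10% fell, with a median of 0.14 beside 0.07 for all genes. Under the 3 other scalings 7 rose and 1 fell. Nfkbiz, a nuclear IkB protein, had a mean of 9.69 ± 0.07, against 8.44 ± 0.45 in untreated cells (1.25 ± 0.20, adjusted p = 0.000233). Zc3h12a, a ribonuclease that degrades inflammatory messenger RNAs, had a mean of 6.95 ± 0.18, against 5.88 ± 0.16 (1.08 ± 0.11, adjusted p = 1.47e-06). Usp18, a protease of the interferon system, rose by 0.66 ± 0.11 (adjusted p = 0.000372) and Tollip, a Toll-interacting inhibitor, by 0.63 ± 0.21 (adjusted p = 0.047). With 10 nm silica 2 rose and 3 fell at the high dose, where 7.58% of all genes rose and 12.6% fell, but 4 to 6 rose and 2 fell under the other scalings. Between the high doses 2 were lower with 10 nm silica, where 4.15% of all genes were, and 3 to 4 under the other scalings. These 2 were Zc3h12a (-1.06 ± 0.11, adjusted p = 6.78e-06) and Tnip1, a partner of the Tnfaip3 protein (-0.49 ± 0.09, adjusted p = 0.00134).

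Of known targets of NF-kB other than cytokines and chemokines, 28 of 30 listed were measured. At the 500 nm high dose 11 rose and none fell, where 5.31% of all genes rose and 10% fell, with a median change of 0.33 beside 0.07 for all genes. Under the other scalings 11 to 12 rose and 0 to 1 fell. With the 10 nm high dose 8 rose, where 7.58% of all genes did, and 4 fell, where 12.6% did, a share of falls near that of all genes. The median was 0.24 beside 0.04, and 8 to 13 rose and 3 to 4 fell under the other scalings. The largest rises at the 500 nm high dose were those of Ier3, an early response gene (2.44 ± 0.13), Clec4e, a C-type lectin receptor (1.65 ± 0.12), Cflar, an inhibitor of caspase activation (1.63 ± 0.26), and Ptgs2, which makes prostaglandins (1.37 ± 0.15), with adjusted p from 2.05e-10 to 0.000194. At the 10 nm high dose the estimated rises of Ier3 and Ptgs2 were larger, 2.77 ± 0.13 and 2.21 ± 0.15. Those of Clec4e and Cflar were smaller, 0.52 ± 0.12 and 1.24 ± 0.26. The arrays of the high doses overlapped for Ier3 (12.22 to 12.63 with 10 nm, 12.06 to 12.28 with 500 nm silica). They also overlapped for Cflar (8.21 to 9.30 and 8.81 to 9.53), but not for Ptgs2 or Clec4e. Between the high doses 7 of the 28 were lower with 10 nm silica and 2 higher, where 4.15% of all genes were lower and 3.37% higher, with a median of -0.08 beside -0.01. The other scalings gave 5 to 7 lower and 2 to 3 higher. Clec4e had a mean of 10.22 ± 0.22 with 10 nm, against 11.34 ± 0.02 with 500 nm silica (-1.12 ± 0.12, adjusted p = 7.11e-06), and Cd83, a surface protein of activated antigen-presenting cells, 9.61 ± 0.09 against 10.66 ± 0.03 (-1.06 ± 0.08, adjusted p = 1.49e-07). In contrast, the adhesion receptor gene Cd44 had the higher mean with 10 nm silica, 10.80 ± 0.03 against 9.80 ± 0.06 (a difference of 1.0 ± 0.17, adjusted p = 0.000709). Slc11a2, a divalent metal transporter, was lower with 10 nm silica (-0.87 ± 0.14, adjusted p = 0.000698). Nfkbiz stands both in this list and in that of the inhibitors, and the lists were not tested as sets.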

How the data were processed

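Total RNA of 21 samples was hybridised, 1 array each, with groups taken from sample titles. The authors deposited 1 log10 value per probe set and array. The submitters' processing notes name RMA, with settings not given in the sources used here. This method usually subtracts background, brings arrays to a common distribution and summarises probes, which can remove a change shared by most genes and compress that of dim probe sets. The log base was read from the deposited values, with a range of 0.641 to 4.34: in base 10 the highest is 22019 intensity units, in base 2 only 20.3. They were multiplied by 3.32 to give log2 values.

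Of 22690 probe sets, 64 were controls, 20380 had 1 gene symbol in GEO's (possibly old) platform annotation, 691 several and 1555 none. Of the 20380, 20351 matched RefSeq (GRCm38.p6), and 0 symbols were updated. The probe set with the highest mean stood for each of 12393 genes, 4956 of which had several. limma 3.58.1 in R 4.3.3 (lmFit, eBayes) fitted group means over all 21 arrays, with 14 residual and 4.80 prior degrees of freedom and a median residual SD of 0.184. Tests were two-sided, adjusted by Benjamini-Hochberg over all genes within each of 12 comparisons, and called at an adjusted p under 0.05. The fit was first tested on simulated data. Arrays have no depth, and their number limits the precision. Figures were drawn with matplotlib 3.10.9.

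Alternatives were the replicate number as a block, quantile normalization, median centring, a filter on genes with a mean below the 25th percentile, the mean of a gene's probe sets and each array left out. Centring with scaling to one SD, leaving out all replicate 3 arrays, the fit of every probe set and the list counts under other scalings were chosen after seeing the data. The members, the lists and the rule for named genes were chosen with earlier results of these data known. That rule named all members, from each list the 4 called genes with the largest change at the 500 nm high dose and between the high doses, and the 3 genes most alike to each member whose group means ranged over at least 1 log2 unit.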

Additional observations from a re-analysis of the deposited data

Results flagged for a closer look

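Members are named here where the response to 10 nm silica differed from that to 500 nm silica by the limma test of the difference itself, each given as 10 nm minus 500 nm on the log2 scale. Between the high doses these were Rel (-1.46), Relb (-1.23), Traf1 (-1.14), Nfkbib (-0.72) and Nfkbie (-0.61). The means behind them were 7.35 with 10 nm and 8.81 with 500 nm silica for Rel, 6.03 and 7.26 for Relb, 7.03 and 8.17 for Traf1, 8.26 and 8.98 for Nfkbib, and 4.66 and 5.28 for Nfkbie. Nfkbie alone of these 5 lost its call when single arrays were left out. For the mid dose of 10 nm against the high dose of 500 nm silica, of equal nominal surface, they were Rel (-1.40), Nfkbia (-0.98), Traf1 (-0.90) and Nfkbib (-0.57). The means were 7.41 with 10 nm and 8.81 with 500 nm silica for Rel, 11.32 and 12.29 for Nfkbia, 7.27 and 8.17 for Traf1, and 8.40 and 8.98 for Nfkbib. Of these 4, Nfkbia lost its call when single arrays were left out. Both comparisons use the same 500 nm high-dose arrays.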

How the results depend on the processing

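Of the 108 changes of members, over 12 comparisons, the dim filter altered no call or sign, and a change of sign under any alternative occurred only where neither value was called, with sizes up to 0.25. Averaging a gene's probe sets gained 4 member calls and lost 0. Quantile normalization and median centring each gained 2 and lost 1, and centring with scaling gained 1 and lost 2. Leaving out the replicate 3 arrays gained 7 and lost 6. Same-numbered replicates tended to deviate together, with 51 of 63 pairs correlated above 0.1, though not for every number. Of number 1, 9 of 21 pairs correlated above 0.1 (lowest -0.24), against 21 of 21 of number 2 (lowest 0.12) and 21 of 21 of number 3 (lowest 0.42). The median was 0.46 over all 63 pairs, and 12 of 21 arrays correlated best with their own number. Between numbers the median was -0.26, which is pulled below 0 because the deviations in a group sum to 0. With the number as a block, 13 member calls were gained and 0 lost. These were Nfkbia at the 10 nm mid dose (adjusted p = 0.0304), Relb, Nfkb2 and Nfkbia at the 500 nm high dose (0.00139, 0.0191 and 0.0246), Nfkb2, Nfkbia and Tnfaip3 for the 500 nm slope (0.00269, 0.00814 and 0.0134) and between the high doses (0.000496, 0.00331 and 0.0183), and Relb, Nfkb2 and Tnfaip3 for 10 nm mid against 500 nm high (0.00117, 0.00575 and 0.0401). In all, members called were 7 instead of 4 at the 500 nm high dose, 8 instead of 5 for the 500 nm slope, 8 instead of 5 between the high doses and 7 instead of 4 for the 10 nm mid against the 500 nm high dose. Genes called under the block were 214, 2235 and 4544 at the 10 nm low, mid and high doses (95, 1315 and 2506 without it), 110, 710 and 3433 at those of 500 nm (53, 343 and 1898), 2821 and 1923 for the 10 nm and 500 nm slopes (1509 and 1016), and 37, 577, 2071 and 789 between the sizes at the low, mid and high doses and for 10 nm mid against 500 nm high (11, 317, 932 and 353). Without the replicate 3 arrays, 1 member was called instead of 0 at the 10 nm low dose and 7 genes instead of 11 between the low doses.

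Leaving out one array gave 2 to 3 members at the 10 nm mid dose, 2 to 4 at the 10 nm high dose, 1 to 3 at the 500 nm mid dose and 3 to 5 for the 500 nm slope. Genes ranged from 60 to 96 at the 10 nm low, 35 to 50 at the 500 nm low and 216 to 298 at the 500 nm mid dose. They ranged from 837 to 1682 for the 10 nm slope, 646 to 986 for the 500 nm slope, and, between the sizes, 6 to 11 at the low, 188 to 227 at the mid, 543 to 906 at the high doses and 191 to 256 for 10 nm mid against 500 nm high. Each such fit had fewer arrays. The gene counts moved by over 1.5 times without replicate 1 of the 10 nm low dose or replicate 2 of the 500 nm low dose in the comparison of that dose with untreated cells, and without replicate 1 or 3 at the 500 nm mid dose. For the slopes this held without replicate 2 of the 10 nm low dose, or replicate 1 or 3 of the 500 nm low dose. Between the sizes it held without replicate 2 of either low dose, and at the mid doses without replicate 1 of 10 nm or any 500 nm array. It held also at the high doses without replicate 1 or 2 of 500 nm, and for 10 nm mid against 500 nm high without any 10 nm array or replicate 1 or 3 of 500 nm silica.

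Signs of uncalled changes turned as follows, each change against untreated cells unless a slope or a comparison of sizes is named, and the cause was not tested. Without the replicate 3 arrays they were Nfkb2 -0.0384 and Nfkbie 0.12 (10 nm low), Rela -0.0071 and Nfkbia 0.10 and Nfkbib 0.0367 (500 nm low), Nfkbia 0.19 (500 nm mid), Nfkbib 0.0057 (10 nm slope) and Nfkbie -0.0256 (500 nm slope). With quantile normalization they were Nfkbib 0.0137 (500 nm low), Nfkbia 0.0156 (500 nm mid), Nfkbib 0.0184 (10 nm slope) and Nfkbie -0.0283 (500 nm slope). With median centring they were Nfkbia 0.0207 (500 nm mid) and Nfkbia 0.0077 and Nfkbib 0.0065 (10 nm slope). With centring and scaling they were Nfkbia 0.11 (10 nm high), Nfkbib 0.0128 (500 nm low), Nfkbia 0.0991 (500 nm mid), Nfkbia 0.0551 and Nfkbib 0.021 (10 nm slope) and Nfkbib 0.0124 (between mid doses). With the mean of probe sets they were Nfkb2 5e-04 (10 nm mid), Nfkb2 0.0423 (10 nm high) and Nfkbia 0.0235 (between low doses). With one array left out the ranges that crossed 0 were Nfkb2 -0.11 to 0.13, Nfkbia -0.32 to 0.0864, Nfkbie -0.18 to 0.0507 (10 nm low), Relb -0.28 to 0.0535, Nfkb2 -0.28 to 0.0108 (10 nm mid), Nfkbia -0.48 to 0.0312, Nfkbib -0.0088 to 0.13 (10 nm high), Rel -0.0799 to 0.11, Rela -0.0359 to 0.04, Nfkbia -0.29 to 0.12, Nfkbib -0.0632 to 0.0385 (500 nm low) and Nfkb2 -0.0872 to 0.19, Nfkbia -0.16 to 0.25 (500 nm mid). They were also Tnfaip3 -0.026 to 0.32 (500 nm high), Nfkbia -0.0978 to 0.0119 (10 nm slope), Nfkbie -0.0221 to 0.0401 (500 nm slope), Nfkbia -0.16 to 0.17, Tnfaip3 -0.13 to 0.0496 (between low doses) and Nfkbie -0.25 to 0.0786, Traf1 -0.0906 to 0.20 (between mid doses).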
